A study of Mus musculus with 6 samples.

Results

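The proteasome is the large protease that degrades ubiquitin-tagged proteins in the cytosol and nucleus, and its subunits are encoded by genes whose names begin with Psm. Every gene whose symbol in the platform annotation is Psm, a letter from a to g and a number was taken, which gave 49 genes out of 19057 with a named probe. Of these 49 genes, 44 had at least 1 probe above the filter on low intensities and were tested, among 13438 genes tested in all. The contrast examined here is between 5 of them (Psmb8, Psmb9, Psmb10, Psme1 and Psme2) and the other 39 tested. No probe named Psmf1, an inhibitor of the proteasome, was used here. Psmc3ip, a meiotic recombination factor, and Psme3ip1, a partner of the PA28 gamma protein, match the names by their letters and are no subunits, so that 42 of the tested genes encode subunits, activators or assembly chaperones.

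RNA came from primary hepatocytes, the main metabolic cell of the liver, of male C57Bl/6J mice, plated on collagen in a medium with serum, dexamethasone and insulin. The 3 groups were cells given 2 ng/mL recombinant murine TNFα for 2 days, cells given the same dose for 2 hours, and untreated cells, with 2 arrays each. TNFα is an inflammatory cytokine. Each array was a single-colour Illumina bead array hybridised with biotin-labelled cRNA. The labels give the untreated cells no time in culture, so that for the 2 day group the cytokine and days on the plate cannot be told apart. They name no animal or culture behind an array, so the p-values rest on array-to-array spread alone, which may be technical. Over all genes tested, arrays correlated at 0.995 to 0.996 within a group and at 0.982 to 0.991 between groups.

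The 20S core of the proteasome is a barrel of alpha and beta rings, and 3 of its beta subunits carry the active sites: Psmb5, Psmb6 and Psmb7 in the constitutive form. Under interferon and other inflammatory signals cells can build the immunoproteasome, in which Psmb8, Psmb9 and Psmb10 take the places of Psmb5, Psmb6 and Psmb7 and which favours peptides that fit MHC class I molecules. The core is opened by the 19S particle, which binds and unfolds ubiquitinated proteins, or by the PA28 ring of Psme1 and Psme2, which does not need ubiquitin. Psmb8 and Psmb9 lie inside the MHC region beside Tap1 and Tap2, which encode the pump that carries peptides into the endoplasmic reticulum.

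The promoter windows of the 5 immune members are shown because their transcripts are the ones contrasted with the rest. The sequences are from RefSeq (GRCm38.p6), 250 bases before to 50 bases after the annotated start, 5′ to 3′ on the gene's own strand. Capitals mark matches to 4 motifs searched on both strands: the kappaB consensus bound by NF-kappaB, the GAS element TTCNNNGAA bound by STAT dimers, the interferon-stimulated response element (ISRE), searched as a pair of GAAA repeats with 2 bases between them and bound by interferon regulatory factors, and the antioxidant response element TGACNNNGC bound by NRF proteins. The windows are Psmb8 on the + strand at chr17:34197945-34198244, Psmb9 on the - strand at chr17:34187281-34187580, Psmb10 on the - strand at chr8:105938343-105938642, Psme1 on the + strand at chr14:55578244-55578543, and Psme2 on the - strand at chr14:55591052-55591351.
Psmb8: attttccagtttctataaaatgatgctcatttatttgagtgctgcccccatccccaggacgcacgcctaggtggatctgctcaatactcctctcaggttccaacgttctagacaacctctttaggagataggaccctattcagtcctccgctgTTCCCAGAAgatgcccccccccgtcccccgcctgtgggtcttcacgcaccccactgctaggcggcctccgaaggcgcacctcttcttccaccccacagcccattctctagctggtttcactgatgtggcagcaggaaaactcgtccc
Psmb9: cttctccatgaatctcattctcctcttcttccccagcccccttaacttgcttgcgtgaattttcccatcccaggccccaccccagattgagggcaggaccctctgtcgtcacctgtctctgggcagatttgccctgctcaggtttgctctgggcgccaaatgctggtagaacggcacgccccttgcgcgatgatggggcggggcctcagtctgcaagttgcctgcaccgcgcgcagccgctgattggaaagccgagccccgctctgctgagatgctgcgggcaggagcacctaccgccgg
Psmb10: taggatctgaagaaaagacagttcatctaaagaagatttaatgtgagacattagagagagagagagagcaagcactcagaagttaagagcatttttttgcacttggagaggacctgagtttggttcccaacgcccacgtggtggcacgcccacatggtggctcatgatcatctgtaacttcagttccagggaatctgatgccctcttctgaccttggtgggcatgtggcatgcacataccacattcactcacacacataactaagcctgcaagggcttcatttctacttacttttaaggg
Psme1: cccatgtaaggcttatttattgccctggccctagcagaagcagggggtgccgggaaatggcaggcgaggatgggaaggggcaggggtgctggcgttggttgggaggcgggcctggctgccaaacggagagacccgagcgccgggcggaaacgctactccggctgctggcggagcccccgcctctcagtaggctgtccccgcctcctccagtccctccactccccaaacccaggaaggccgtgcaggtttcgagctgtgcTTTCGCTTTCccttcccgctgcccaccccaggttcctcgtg
Psme2: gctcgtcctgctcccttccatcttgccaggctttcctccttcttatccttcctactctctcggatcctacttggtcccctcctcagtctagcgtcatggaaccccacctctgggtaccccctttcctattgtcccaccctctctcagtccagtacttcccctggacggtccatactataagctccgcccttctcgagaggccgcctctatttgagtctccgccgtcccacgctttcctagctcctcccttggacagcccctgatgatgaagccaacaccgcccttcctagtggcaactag

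Psmb8 held 1 GAS match, at bases 154 to 162 of its window, and Psme1 held 1 ISRE match, at bases 260 to 269, which is past the annotated start and on the opposite strand. The windows of Psmb9, Psmb10 and Psme2 held none of the 4 motifs, and neither did the second window that RefSeq gives for Psme2. No 2 matches in these windows overlapped. Among all 32851 promoter windows of the same length, 8.46% held the kappaB consensus, 8.30% the GAS element, 3.44% the ISRE and 12.4% the antioxidant element, and of the 27025 genes with a window 9.55%, 9.55%, 3.99% and 14.0% did so in at least 1. Of the 49 genes, 41 had a window, and 6 of these 41 held a kappaB match, 3 a GAS, 5 an ISRE and 6 an antioxidant match. The kappaB matches were in Psma6, Psma7, Psmd11, Psmd12, Psmd13 and Psme4, and Psmb5 and Psmb6, the constitutive counterparts of Psmb8 and Psmb9, were among the 6 with an antioxidant match. A match describes letters in a window and says nothing of whether a factor was bound in these cells.

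After 2 days of TNFα all 5 immune members had risen against untreated cells, Psmb10 and Psmb8 by 2.62-fold and 2.54-fold, Psmb9 and Psme2 by 1.55-fold and 1.53-fold, and Psme1 by 1.33-fold. Of the other 39 tested genes, 2 rose, the 19S assembly chaperone Psmd10 by 2.02-fold and the alpha ring subunit Psma7 by 1.34-fold, and none fell. These are limma calls at an adjusted p under 0.05, a threshold that 6.74% of all genes tested passed upwards and 5.92% downwards. At an unadjusted p under 0.05, 15 of the 44 were higher and 2 lower, as were 12.3% and 10.4% of all genes tested. The median change of the 5 was 0.64 on the log2 scale, that of the other 39 was 0.16, and that of all genes tested was 0.01. In 29 of the other 39 the change was positive. Both 2 day arrays lay above both untreated arrays in 19 of the 39 and below in 3, separations that 26.1% and 23.5% of all genes showed. With a normexp background correction 3 of the 7 calls were left, those of Psmb8, Psmb10 and Psmd10, and without 2 day replicate 2 there were 4.

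After 2 hours, 1 of the 5 immune members had risen, Psmb10 by 1.66-fold, and 1 of the other 39, Psmd10 by 1.36-fold. None of the 44 fell by the same test, with 3 higher and 1 lower at an unadjusted p under 0.05. Of all genes tested 1.76% were called higher and 1.06% lower in this comparison, and 5.17% were higher and 6.61% lower at the unadjusted p, so that the unadjusted counts were near the share of all genes. The median change of the 5 was 0.23 on the log2 scale, against -0.04 for the other 39 and -0.01 for all genes tested. In 27 of the other 39 the change was negative. Both 2 hour arrays lay above both untreated arrays in 5 of the 39 and below in 9, where 18.0% and 22.4% of all genes did so. Leaving out either 2 hour array left 1 call, and the normexp correction left none. The 2 untreated arrays serve in the comparisons of both times, so values for the times are given side by side and their likeness is not counted.

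Between the times, 11 of the 44 were higher after 2 days than after 2 hours, and none was lower, with 22 higher and 1 lower at an unadjusted p under 0.05. All 5 immune members were among the 11, and the other 6 were Psmd10, Psma7, Psma5, Psmd2, Psmg3 and Psmc3ip. Of all genes tested 8.63% were called higher and 6.67% lower at 2 days, and 14.9% and 10.8% at the unadjusted p. The median difference was 0.54 for the 5 and 0.19 for the other 39, on the log2 scale, and 0.01 for all genes tested. Both 2 day arrays lay above both 2 hour arrays in 26 of the 39 and below in 4, against 29.4% and 23.4% of all genes. There were 5 calls without 2 hour replicate 2, 6 without 2 hour replicate 1, 6 without 2 day replicate 2 and 4 with the normexp correction.

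**Figure D1:**
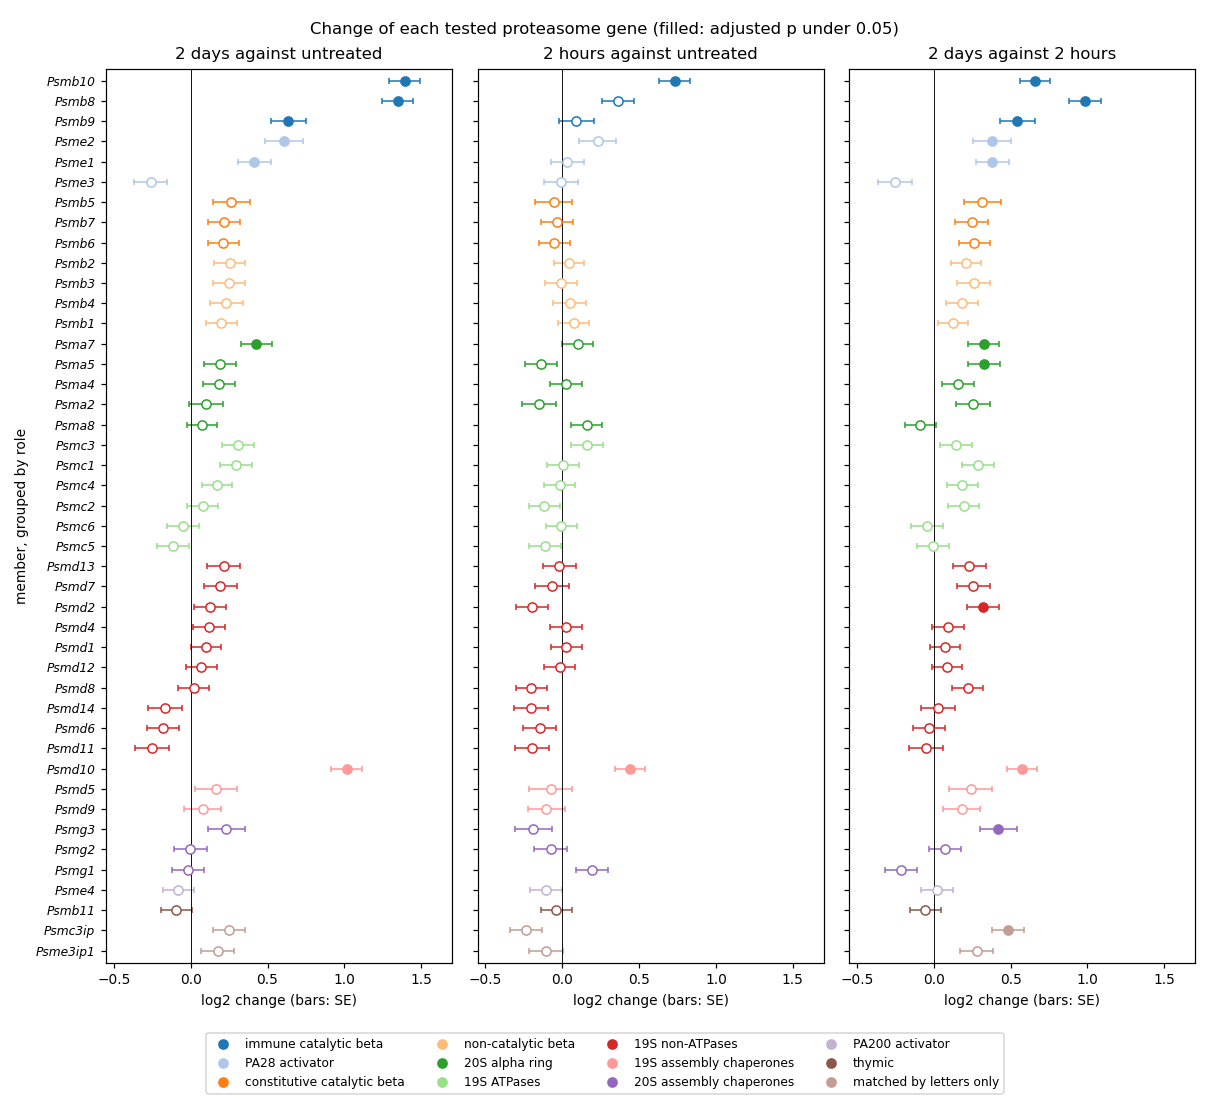
Log2 change with its standard error (bars) for each of the 44 tested genes, grouped by role from top to bottom, for 2 days against untreated, 2 hours against untreated, and 2 days against 2 hours. Filled points passed an adjusted p under 0.05 in the limma fit. In the left panel 7 points are filled, all right of 0, and 5 of them are the immune and PA28 genes at 0.41 to 1.39.

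Psmb8 encodes LMP7, the immune subunit that replaces Psmb5 at the chymotrypsin-like site. Its probe read 2263 and 2318 after 2 days, 1146 and 1169 after 2 hours, and 839 and 968 in untreated cells. The 3 groups did not overlap, and the 2 day arrays stood well above the rest. The change at 2 days was 1.35 on the log2 scale (SE 0.10, adjusted p = 3.48e-10), and that at 2 hours was 0.36 on the log2 scale (SE 0.10, adjusted p = 0.0583). The 2 hour value passed the threshold under cyclic loess, median centring, an offset of 16 and without untreated replicate 2. The difference between the times was 0.98 on the log2 scale (SE 0.10, adjusted p = 8.04e-08). A second Psmb8 probe, nearer the array median, read 279 and 326 after 2 days, 277 and 226 after 2 hours, and 215 and 188 in untreated cells. On that probe the change at 2 days was 0.58 on the log2 scale (adjusted p = 0.000948), and the difference between the times was 0.27 (adjusted p = 0.142), which did not pass the threshold.

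Psmb10 encodes MECL-1, which replaces Psmb7 at the trypsin-like site. Its intensities were 2752 and 2652 after 2 days, 1765 and 1659 after 2 hours, and 1005 and 1056 in untreated cells. No 2 groups overlapped, and each longer exposure read higher. Against untreated cells the change was 1.39 on the log2 scale (SE 0.10, adjusted p = 1.07e-10) at 2 days and 0.73 on the log2 scale (SE 0.10, adjusted p = 2.00e-05) at 2 hours, the highest value among the 44 genes in both comparisons. The 2 day value exceeded the 2 hour value by 0.66 on the log2 scale (SE 0.10, adjusted p = 2.57e-05). A second Psmb10 probe gave 1.52 at 2 days, 0.79 at 2 hours and 0.72 between the times, all past the threshold. The 2 hour call ended with the normexp correction (0.79, adjusted p = 0.0612), and the 2 day call held in every setting.

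Psmb9 encodes LMP2, which replaces Psmb6 at the caspase-like site. Its single passing probe read 499.7 and 471 after 2 days, 298 and 372 after 2 hours, and 338 and 289 in untreated cells. The 2 hour and untreated arrays overlapped, while both 2 day arrays lay above them. The change was 0.64 on the log2 scale (SE 0.11, adjusted p = 0.000230) at 2 days and 0.09 on the log2 scale (SE 0.11, adjusted p = 0.852) at 2 hours. The 2 day value exceeded the 2 hour value by 0.54 on the log2 scale (SE 0.11, adjusted p = 0.00114). With the normexp correction the 2 day change was 0.84 and missed the threshold (adjusted p = 0.0562). The difference between the times missed it with that correction (0.71, adjusted p = 0.0775) and without 2 hour replicate 1 (0.38, adjusted p = 0.0747).

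Psme1 and Psme2 encode the alpha and beta chains of PA28, the ring that opens the core and that interferon gamma induces. Psme1 read 3943 and 4519.9 after 2 days, 3363 and 3124 after 2 hours, and 3397 and 2953 in untreated cells. Only the 2 day arrays stood apart, with a change of 0.41 on the log2 scale (SE 0.11, adjusted p = 0.00912), against 0.03 on the log2 scale (SE 0.11, adjusted p = 0.952) at 2 hours. A second Psme1 probe gave 0.63 at 2 days (adjusted p = 9.37e-05). On the probe used, the 2 day call was lost with the normexp correction (0.43, adjusted p = 0.181), without untreated replicate 2 (0.31, adjusted p = 0.136) and without 2 day replicate 2 (0.32, adjusted p = 0.163).

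Psme2 read 917 and 1288 after 2 days, 868 and 805 after 2 hours, and 742 and 684 in untreated cells. The 2 day arrays lay far apart from each other, and the lower of them was just above the 2 hour arrays. The change was 0.61 on the log2 scale (SE 0.12, adjusted p = 0.000884) at 2 days and 0.23 on the log2 scale (SE 0.12, adjusted p = 0.504) at 2 hours. Without 2 day replicate 2 it was 0.36 (adjusted p = 0.0815) and the difference between the times was 0.13 (adjusted p = 0.632), against 0.38 with all arrays (adjusted p = 0.0360). With the normexp correction the 2 day change was 0.68 (adjusted p = 0.108). Psme3 encodes PA28 gamma, a nuclear activator that interferon does not induce, and had the lowest change of the 44 genes at 2 days. It read 1089 and 1288 after 2 days, 1297 and 1532 after 2 hours, and 1436 and 1400.4 in untreated cells, with both 2 day arrays below the other 4. Its change was -0.26 on the log2 scale (SE 0.11, adjusted p = 0.139) at 2 days and -0.01 on the log2 scale (SE 0.11, adjusted p = 0.987) at 2 hours, past no threshold. Psme4, the PA200 activator, gave -0.08 at 2 days and -0.10 at 2 hours, neither of which passed the test.

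**Figure D2:**
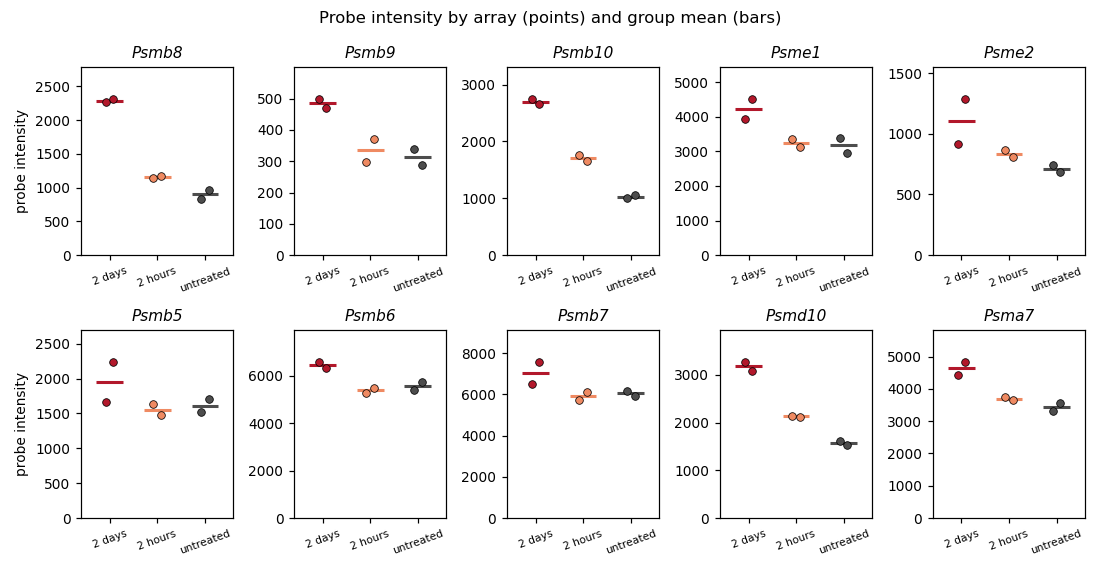
Probe intensity (linear scale, from 0) of 10 genes on each array, with the group mean as a bar, for 2 days, 2 hours and untreated cells from left to right. Psmb8, Psmb10 and Psmd10 are highest after 2 days, lower after 2 hours and lowest in untreated cells with no overlap, whereas Psmb5 and Psmb7 have 1 of the 2 day arrays close to the other groups.

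The constitutive catalytic subunits were measured on the same arrays as their immune counterparts. Psmb5 read 1663 and 2242 after 2 days, 1628 and 1475 after 2 hours, and 1513 and 1709.6 in untreated cells, with 1 high array at 2 days and the other inside the untreated range. Psmb6 read 6599 and 6325 after 2 days, 5271 and 5493 after 2 hours, and 5399 and 5749.7 in untreated cells, and its 2 day arrays were above the other 4. Psmb7 read 6495 and 7593 after 2 days, 5731 and 6118 after 2 hours, and 6185 and 5923 in untreated cells, also with the 2 day arrays on top. At 2 days the 3 changes were 0.26, 0.21 and 0.21 in that order (adjusted p = 0.184 to 0.222), and at 2 hours -0.05, -0.05 and -0.03. None passed the threshold in any of the comparisons. The second probe of Psmb6 did, at 0.52 (adjusted p = 0.00112), while the 3 other probes of Psmb7 gave -0.01 to 0.10. For Psmb5 the 2 day change was 0.48 (adjusted p = 0.0157) without 2 day replicate 1 and 0.05 without 2 day replicate 2.

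The log2 ratio of each immune subunit to the subunit it replaces was computed within each array and set against its mean in untreated cells, since levels of different probes are not comparable. For Psmb8 over Psmb5 the ratio was 1.28 and 0.88 after 2 days, 0.33 and 0.50 after 2 hours, and -0.02 and 0.02 in untreated cells. For Psmb10 over Psmb7 it was 1.32 and 1.04 after 2 days, 0.86 and 0.67 after 2 hours, and -0.07 and 0.07 in untreated cells. In both pairs the 3 groups were apart, with 2 days on top. For Psmb9 over Psmb6 it was 0.43 and 0.41 after 2 days, 0.01 and 0.27 after 2 hours, and 0.16 and -0.16 in untreated cells, where the last 2 groups overlapped. The mean shift at 2 days was 1.08, 1.18 and 0.42 for the Psmb8, Psmb10 and Psmb9 pairs, and at 2 hours 0.41, 0.76 and 0.14. An exact two-sided permutation test of 2 arrays against 2 cannot go below p = 0.33, which was its value in 8 of the 9 comparisons of these 3 pairs (0.375 after Benjamini-Hochberg adjustment). With the mean of each gene's probes the 2 day shift was 0.70 for Psmb8 over Psmb5, 1.37 for Psmb10 over Psmb7 and 0.27 for Psmb9 over Psmb6. Leaving out 1 array moved the Psmb9 over Psmb6 shift between 0.26 and 0.58 at 2 days, and between -0.02 and 0.30 at 2 hours, where the sign turned without untreated replicate 2.

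**Figure D3:**
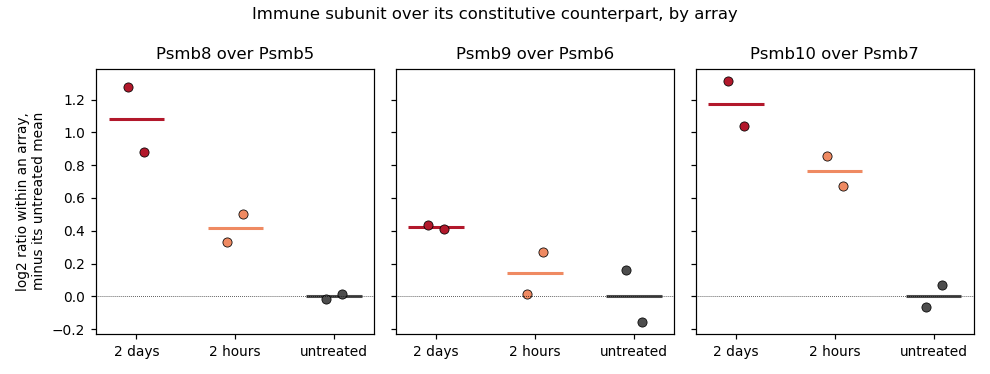
Log2 ratio of the immune subunit to its constitutive counterpart on each array, minus the mean of the 2 untreated arrays (points), with the group mean as a bar. The 2 day arrays lie at 0.88 to 1.28, 0.41 to 0.43 and 1.04 to 1.32 in the 3 panels from left to right, above the untreated arrays in each.

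Beyond the immune catalytic subunits, 13 genes of the 20S core were tested, and at 2 days 12 of the 13 changes were positive, between 0.07 and 0.43 on the log2 scale, the exception being the thymic subunit Psmb11 at -0.09. Of these 13, 1 passed the threshold, as did 6.74% of all genes upwards. In 10 both 2 day arrays were above both untreated arrays, which holds for 26.1% of all genes. At 2 hours 6 of the 13 changes were positive and 7 negative, from -0.15 to 0.16. Psma7, an alpha ring subunit, was the one that passed. It read 4433 and 4845 after 2 days, 3739 and 3653 after 2 hours, and 3324 and 3576 in untreated cells, and the change was 0.43 on the log2 scale (SE 0.10, adjusted p = 0.00422). Its other probe gave 0.18 (adjusted p = 0.306), and on the probe used the call was lost with the normexp correction, without untreated replicate 1 and without 2 day replicate 2 (adjusted p = 0.0615 to 0.131). Psma5, another alpha subunit, read 10295 and 9341 after 2 days, 7331 and 8333 after 2 hours, and 8711 and 8476 in untreated cells. Its 2 hour arrays were the lowest, and it was called only between the times (log2 0.33, SE 0.10, adjusted p = 0.0313). That call was lost without 2 hour replicate 1 (0.23, adjusted p = 0.293) and without 2 day replicate 1 (0.26, adjusted p = 0.242).

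The 4 non-catalytic beta subunits, Psmb1 to Psmb4, gave 0.20 to 0.26 at 2 days, none past the threshold (adjusted p = 0.107 to 0.239). In each, both 2 day arrays were above both untreated arrays, as in 26.1% of all genes. By the unadjusted test 3 of the 4 were higher at p under 0.05, as were 12.3% of all genes. A second Psmb2 probe gave 0.14 with overlapping arrays. A second Psmb3 probe, at 125 to 144 and around the array median, gave -0.11. At 2 hours the probes used for the 4 genes gave -0.01 to 0.07. Psma8, the testis form of an alpha subunit, gave 0.07 at 2 days. Psmb11, the thymic catalytic subunit, read 150.4 and 133.2 after 2 days, 146.0 and 147.9 after 2 hours, and 154.2 and 147.9 in untreated cells, near the array median.

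The 19S particle holds 6 ATPases, which unfold the substrate and feed it into the core, and non-ATPase subunits that bind ubiquitin and remove it. None of the 16 tested 19S genes was called against untreated cells at either time. Among all genes 6.74% were called higher and 5.92% lower at 2 days, and 1.76% and 1.06% at 2 hours. Such shares leave few calls among 16 genes, so their absence says little of the particle. Psmc6 read 142 to 166 and Psmd6 170 to 214 on all arrays, near or not far above the array median. The ATPases Psmc1 to Psmc6 gave -0.11 to 0.31 at 2 days. Of the 6, 2 were higher at an unadjusted p under 0.05, as were 12.3% of all genes. They were Psmc3 at 0.31 (adjusted p = 0.0534) and Psmc1 at 0.29 (adjusted p = 0.0684). At 2 hours the 6 ATPases gave -0.12 to 0.16. None was under an unadjusted p of 0.05, where 5.17% of all genes were higher and 6.61% lower. The 10 tested non-ATPases gave -0.25 to 0.21 at 2 days and -0.20 to 0.03 at 2 hours. Psmd4, a ubiquitin receptor, gave 0.12 at 2 days, and Psmd14, the deubiquitinase of the lid, gave -0.17. Psmd2, the scaffold subunit of the base, read 264 and 244 after 2 days, 194 and 214 after 2 hours, and 248 and 219 in untreated cells, not far above the array median. It was called between the times at 0.32 on the log2 scale (SE 0.10, adjusted p = 0.0386), but its other probe, at 150 to 175 on all arrays, gave 0.02, and 9 of the alternative settings ended the call.

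Of the 19S assembly chaperones, Psmd10 was the one gene outside the immune group that was called in all 3 comparisons. Psmd10 encodes gankyrin, which binds an ATPase of the base during assembly and is also studied as an oncoprotein in liver. It read 3276 and 3081 after 2 days, 2148 and 2122 after 2 hours, and 1608 and 1539 in untreated cells. The groups were fully apart and the replicates close. The change was 1.01 on the log2 scale (SE 0.10, adjusted p = 2.92e-08) at 2 days and 0.44 on the log2 scale (SE 0.10, adjusted p = 0.00984) at 2 hours, with a further 0.57 on the log2 scale (SE 0.10, adjusted p = 0.000142) between the times. All 3 Psmd10 probes rose at 2 days, by 0.89 to 1.22 on the log2 scale, and the 2 day call held in every setting. The 2 hour call was lost with the normexp correction, without untreated replicate 2, without either 2 hour array, and on 1 of the other probes (adjusted p = 0.0912 to 0.263). The 2 others tested here as 19S assembly chaperones, Psmd5 and Psmd9, gave 0.16 and 0.08 at 2 days.

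The 20S assembly chaperones Psmg1, Psmg2 and Psmg3 gave -0.02 to 0.23 at 2 days and -0.19 to 0.19 at 2 hours, none past the threshold. Psmg3 read 1069 and 1124 after 2 days, 904 and 743 after 2 hours, and 816 and 1068 in untreated cells, with the untreated arrays spanning most of the range. It was called between the times (log2 0.42, SE 0.12, adjusted p = 0.0170), but not without 2 hour replicate 2 (0.28, adjusted p = 0.307) or 2 day replicate 2 (0.38, adjusted p = 0.114). Psmc3ip, matched by letters only, read 197 and 215 after 2 days, 157 and 139 after 2 hours, and 181 and 167 in untreated cells, near the array median. It had the lowest change of the 44 at 2 hours (-0.23, adjusted p = 0.355) and was called between the times (0.48, adjusted p = 0.00160), though not without 2 hour replicate 2 (0.39, adjusted p = 0.0589). Over the 33 genes that passed in no comparison the changes ran from -0.26 to 0.31 at 2 days and from -0.20 to 0.19 at 2 hours. The 5 genes without a passing probe were Psma1, Psma3, Psma6, Psmd3 and Psmg4, whose 6 probes read 113.9 to 146.0 over all arrays, around or below the array medians of about 143.2. Psma1, Psma3 and Psma6 are core subunits that every cell is known to need, so these probes give no level.

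For 22 genes more than 1 probe passed, 73 probes having passed for the 44 genes and 13 not. Psmb8, Psmb10, Psme1 and Psmd10 were called at 2 days on every passing probe. Psma7 was called on 1 of its 2 probes and so was Psmb6, in the second case on the probe not used. Among the genes that were not called, probes of the same gene could lie on both sides of 0 at 2 days, as for Psmc5 (-0.11 and 0.08) and Psmg2 (-0.30 to 0.20), probes that read 259 or more on every array. Between the times the second Psmd9 probe was called lower (-0.31, adjusted p = 0.0438), while the probe used gave 0.18 and was not called. Both Psmd9 probes read not far above the array median.

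**Figure D4:**
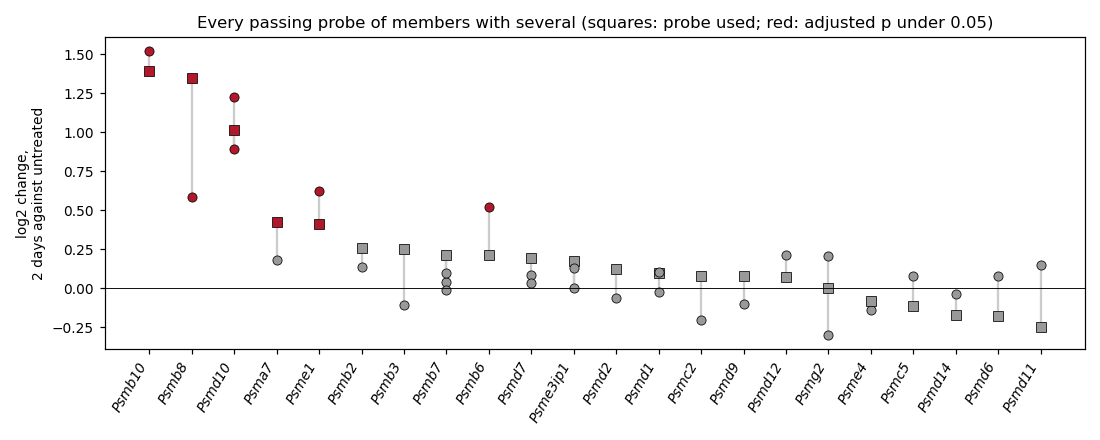
Log2 change at 2 days against untreated for every passing probe of the 22 genes with more than 1 (squares, the probe used; circles, the others; red, adjusted p under 0.05 in the limma fit). Psmb10, Psmb8, Psmd10 and Psme1 have all probes above 0 and red, and for some genes with changes of 0.26 or less the probes fall on both sides of the 0 line, a few of these probes being near the array median.

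The genes around the proteasome were taken from 4 pathway lists. Among 16 tested regulators of proteasome genes, 5 rose and 1 fell at 2 days, and 5 rose and none fell at 2 hours (7 higher and none lower at an unadjusted p under 0.05, against 5.17% and 6.61% of all genes). Of all genes tested 6.74% were called higher and 5.92% lower at 2 days, and 1.76% and 1.06% at 2 hours. The median change of the list was 0.17 at 2 days and 0.09 at 2 hours. Between the times 2 of the list were higher and 4 lower at 2 days, against 8.63% and 6.67% of all genes. Irf1, an interferon regulatory factor that binds immunoproteasome promoters, rose by 6.87-fold at 2 hours (log2 2.78, SE 0.11, adjusted p = 1.99e-15) and by 1.68-fold at 2 days (log2 0.75, SE 0.11, adjusted p = 2.93e-05). It read 1681 and 2061 after 2 days, 6984 and 8318 after 2 hours, and 1147 and 1073 in untreated cells, so that the 2 hour arrays were far above the others. Its 4 other probes all rose at 2 hours, and at 2 days 2 of them passed (0.64 and 0.38) and 2 did not (0.23 and 0.02). The probe with 0.02 read 122 to 143 in the 2 day and untreated arrays, around the array median. Nlrc5, the transactivator of MHC class I genes, rose at 2 days (log2 0.61, SE 0.10, adjusted p = 0.000111). It read 404 and 423 after 2 days, 267 and 262 after 2 hours, and 291 and 252 in untreated cells, and its difference between the times also passed (log2 0.65, SE 0.10, adjusted p = 5.14e-05). Nfe2l2, the NRF2 regulator of antioxidant genes, rose by 0.65 at 2 hours (adjusted p = 0.000339), and its value of 0.24 at 2 days did not pass. Ifngr1, a chain of the interferon gamma receptor, rose by 0.58 at 2 hours and Rela, a subunit of NF-kappaB, by 0.54. Ifngr2, a second chain of that receptor, rose by 0.49 at 2 hours and 0.50 at 2 days, and Mafg by 0.51 at 2 days. Those calls were lost in 6 of 18, 4 of 18 and 3 of 17 settings, in that order. Stat3 fell by 0.35 at 2 days, but its other probes gave -0.24 (adjusted p = 0.178) and 0.30 (adjusted p = 0.0740). The Stat3 call held in only 6 of 18 settings, and without untreated replicate 1 the change was -0.17. Leaving out untreated replicate 1 or 2 hour replicate 1 also ended the calls of Ifngr1 (0.43 and 0.44) and Rela (0.46 and 0.45), and leaving out 2 hour replicate 2 that of Rela (0.62, adjusted p = 0.0555). The normexp correction ended the 2 hour calls of Nfe2l2 (0.71, adjusted p = 0.156), Ifngr1 (0.61) and Rela (0.55) and the 2 day call of Stat3 (-0.37).

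Of 4 tested ubiquitin-like genes and activating enzymes, 3 rose at 2 days and 1 at 2 hours, against 6.74% and 1.76% of all genes. The list medians were 1.15 and 0.38. Between the times 3 were higher at 2 days, against 8.63% of all genes. Ubd encodes FAT10, a ubiquitin-like tag that sends proteins to the proteasome, and it read 2120.3 and 2903 after 2 days, 388 and 329.8 after 2 hours, and 283 and 251 in untreated cells. Its change was 9.30-fold at 2 days (log2 3.22, SE 0.12, adjusted p = 1.09e-15), and at 2 hours it was 0.42 on the log2 scale (SE 0.12, adjusted p = 0.0732). Isg15, an interferon-induced ubiquitin-like protein, rose by 1.29 at 2 days and 0.51 at 2 hours, and Uba7, its activating enzyme, by 1.02 at 2 days. The 2 hour call of Isg15 was lost with the normexp correction (0.64, adjusted p = 0.237) and without either 2 hour array or untreated replicate 2 (0.40 to 0.57, adjusted p = 0.0566 to 0.169). Of the 9 genes on that list 4 had a named probe, and the genes for ubiquitin itself were not analysed here.

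Of 12 tested genes that supply and load class I peptides, 7 rose and none fell at 2 days, with 9 higher and none lower at an unadjusted p under 0.05, which 12.3% and 10.4% of all genes were, and 2 rose at 2 hours. By the adjusted test 6.74% of all genes were higher and 5.92% lower at 2 days, and 1.76% were higher at 2 hours. The list medians were 0.37 and 0.09, and 4 were higher at 2 days than at 2 hours, against 8.63% of all genes. Tapbp, which holds empty class I molecules at the peptide pump, rose by 0.99 at 2 days (adjusted p = 2.97e-07), the class I heavy chain H2-K1 by 0.80 and the chaperones Calr and Pdia3 by 0.60 and 0.54. The 2 other H2-K1 probes gave 0.59 (adjusted p = 0.000367) and 0.17 (adjusted p = 0.400). At 2 hours Tapbpl, a peptide editor, rose by 0.65 and Calr by 0.59, while the other Tapbpl probe gave 0.02 and read 142 to 175 on all arrays, near the array median. The 2 hour call of Calr was lost without 2 hour replicate 2 (0.48, adjusted p = 0.132) and without untreated replicate 1 (0.45, adjusted p = 0.0791). The normexp correction ended both 2 hour calls and the 2 day calls of Calr (0.72, adjusted p = 0.0687) and Pdia3 (0.55, adjusted p = 0.108). Tap1 and Tap2, which flank Psmb8 on chromosome 17, and Irf9, which lies close to Psme2 on chromosome 14, were picked for that position after their values were seen. Tap2 rose by 0.38 at 2 days (adjusted p = 0.0115) and Irf9 by 0.41 (adjusted p = 0.00846), and Tap1 had 0.28 (adjusted p = 0.103). The Tap2 and Irf9 calls were lost with the normexp correction, without 2 day replicate 2 (0.35 and 0.30), and without untreated replicate 2 for Tap2 (0.32) and replicate 1 for Irf9 (0.33).

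Of 13 tested accessory and assembly factors, 1 rose and 3 fell at 2 days, and none was called at 2 hours, where none was higher and 4 lower at an unadjusted p under 0.05, against 5.17% and 6.61% of all genes. By the adjusted test 6.74% of all genes were higher and 5.92% lower at 2 days, and 1.76% and 1.06% at 2 hours. The 1 rise among the 13 was near the share of all genes. The list medians were -0.12 and -0.03, and 2 were higher at 2 days than at 2 hours, against 8.63% of all genes. Vcp, the ATPase that extracts ubiquitinated proteins, rose by 0.36 (adjusted p = 0.0246). The proteasome-bound deubiquitinase Uchl5 fell by 0.45, and the shuttle factors Ubqln1 and Rad23b fell by 0.42 and 0.35. The other Uchl5 probes gave 0.05 (adjusted p = 0.881), -0.07 and -0.24, and the other probes of Ubqln1 and Rad23b gave -0.26 to -0.07, all past no threshold. Without untreated replicate 1 all 4 calls were lost (adjusted p = 0.0560 to 0.300), and so they were with the normexp correction (adjusted p = 0.101 to 0.237), while 3 were lost without 2 day replicate 2 and that of Vcp without 2 day replicate 1. Zfand2a, a stress-induced partner of the 19S particle, was 0.57 higher at 2 days than at 2 hours, a call that the normexp correction ended (0.59, adjusted p = 0.0677).

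**Figure D5:**
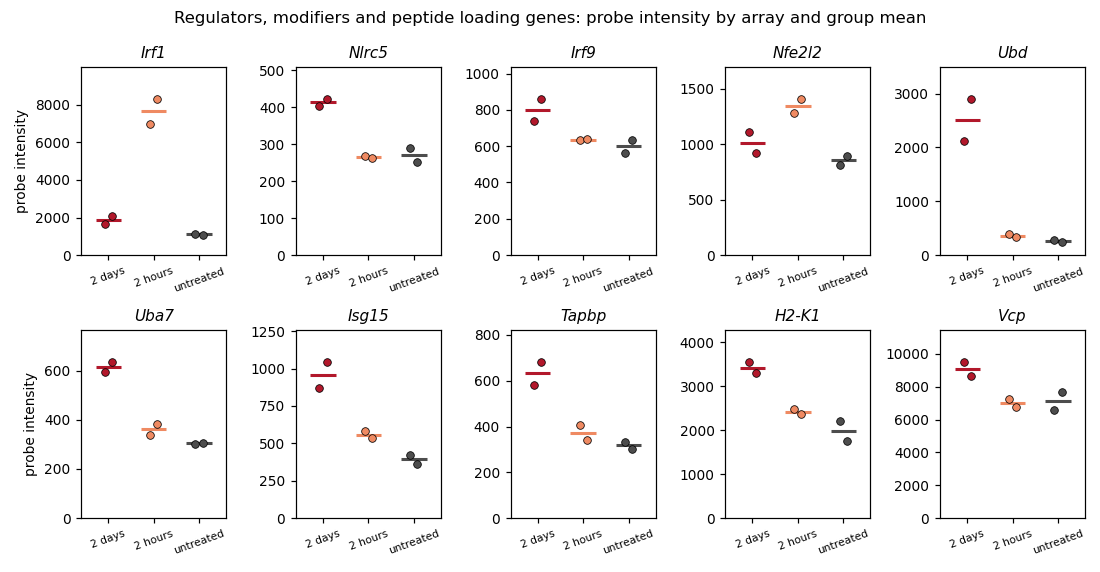
Probe intensity (linear scale, from 0) of 10 genes around the proteasome on each array, with the group mean as a bar, for 2 days, 2 hours and untreated cells from left to right. Irf1 and Nfe2l2 are highest after 2 hours, and Ubd, Uba7, Isg15, Tapbp, H2-K1 and Nlrc5 after 2 days.

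Immunoproteasome subunits are abundant in leukocytes, so markers of other liver cells are given beside these values. The summed intensity of Psmb8, Psmb9 and Psmb10 was 5441 to 5515 after 2 days, 3200.4 to 3209.5 after 2 hours, and 2181 to 2313 in untreated cells. Of 10 macrophage markers with a probe 8 passed the filter, and the sum over all 10 was 1835 to 2016 after 2 days, 1596 to 1629 after 2 hours, and 1618 to 1667 in untreated cells. Most of these probes, like the pan-leukocyte probes below, read near or not far above the array median, so such sums may understate a fold change. Of the 8 that passed, 6 changes were positive and 2 negative at 2 days, and 3 were called higher, against 6.74% of all genes. These were the complement genes C1qb, C1qc and C1qa, at 0.75, 0.42 and 0.36. C1qa read 182 to 203 after 2 days and 146 to 155 in untreated cells, near the array median. Vsig4 gave 0.08. Lyz2 read 164 to 173 after 2 days and 178 to 182 in untreated cells, and Marco 193 to 197 and 145 to 173. The macrophage receptors Adgre1 and Csf1r read 129.5 to 173.5 on all arrays, near the array median, and Clec4f and Cd5l did not pass. The sum over all 5 pan-leukocyte markers, of which 3 passed, was 969 to 971 after 2 days, 738 to 801 after 2 hours, and 803 to 818 in untreated cells. Of these 3, only Laptm5 was called at 2 days against untreated cells, at 0.61, while Cd52 gave 0.24 and Coro1a 0.19, past no threshold. Between the times all 8 macrophage changes were positive and 4 were called, C1qb, C1qc, C1qa and Vsig4 (0.65, 0.37, 0.30 and 0.31). Of the 3 pan-leukocyte markers Laptm5 and Cd52 were called (0.60 and 0.51), against 8.63% of all genes called higher. The Vsig4 call was lost in 6 of 16 settings and that of C1qa in 8 of 16, and another Cd52 probe gave 0.03. Ptprc, which encodes CD45, did not pass the filter. Against untreated cells, the C1qa and C1qc calls at 2 days were lost without 2 day replicate 2 (0.28 and 0.30). That of C1qc was also lost with the normexp correction (0.75, adjusted p = 0.0771). Of the lymphocyte, dendritic and neutrophil markers 5 passed the filter and none was called in any comparison, with none at an unadjusted p under 0.05 in the limma fit. By that p 12.3% of all genes were higher and 10.4% lower at 2 days, which leaves few among 5. These 5 probes read 125.1 to 168.3 on all arrays, around the array median, so their lack of calls says little of those cells. Neither of the 2 bile duct markers that passed was called in any comparison, with none at that unadjusted p. Of 6 endothelial markers Oit3 was higher (0.43) and Stab2 lower (-0.37) at 2 days. None of the 6 was called at 2 hours, and none was under an unadjusted p of 0.05, where 5.17% of all genes were higher and 6.61% lower. Of 4 stellate cell markers that passed Reln was lower at 2 days (-0.82) and higher at 2 hours (0.43). Among all genes 6.74% were called higher and 5.92% lower at 2 days, and 1.76% and 1.06% at 2 hours. The part of these cells in the proteasome values was not tested.

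The hepatocyte markers Apoa1, Ttr, Serpina1c, Cps1 and Asgr1 were bright on all arrays, while the probes for Alb and Fgb read 118.6 to 174.5, near the array median, and Tat did not pass. The sum over all 8 was 68462 to 73322 after 2 days, 113225 to 114038 after 2 hours, and 108747 to 114546 in untreated cells. Of the 7 that passed, which include the dim Alb and Fgb probes, 3 fell at 2 days, as did 5.92% of all genes. In such bulk RNA, fewer cells of a type and less RNA per cell cannot be told apart. The part of this shift in the proteasome values was not tested.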

How the data were processed

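As deposited, the values were linear intensities, 1 for each of 45281 probes on each array. No label names its scanning or normalization software. The deposited intensities shared 1 distribution, as after quantile normalization, with the same lowest value in every column (96.5). Whether background was subtracted is not stated. With a lowest value this high, fold changes of dim probes may be understated. Columns of other samples numbered 0. Probes took names from the platform table (34885 with 1 gene symbol, 18 with several, 10378 unlisted), and 34807 were checked by entrez identifier against RefSeq (GRCm38.p6), used for names and promoters. Intensities were taken to log2. A probe passed when 2 or more arrays exceeded their 50th percentile, and a gene was represented by its passing probe with the highest mean. Group means were fitted in limma 3.58.1 (R 4.3.3) over the 6 arrays together, and p-values were adjusted by Benjamini-Hochberg over 13438 genes, or over all passing probes where a gene's other probes are given. With 3 residual and 21.2 prior degrees of freedom, each gene's spread was mostly that shared over genes. The number of arrays limits the precision. The fit was tested on simulated data.

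The genes and lists were chosen with earlier results of these data known. Values are named for the 5 immune members, their 3 counterparts, every called member, and the highest and lowest change per comparison. From each list, genes were named from among the called ones with the largest change, up to 4 per comparison. Further genes were named as examples of a role or position. The alternatives tried were normexp, cyclic loess, median centring, an offset of 16, other filters, thresholds and variances, the mean of a gene's probes, a replicate block, and leaving out each array.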

Additional observations from a re-analysis of the deposited data

Results flagged for a closer look

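For 11 genes the 2 day and 2 hour arrays differed, by the test of 2 days minus 2 hours in the limma fit, and each was higher at 2 days. For this difference the length of exposure to TNFα and time in culture cannot be told apart. On the log2 scale the difference was 0.98 for Psmb8, 0.66 for Psmb10, 0.54 for Psmb9, 0.38 for Psme1 and 0.38 for Psme2, the immune and PA28 members, and 0.57 for the chaperone Psmd10. It was 0.33 for Psma5, 0.33 for Psma7, 0.32 for Psmd2, 0.42 for Psmg3 and 0.48 for Psmc3ip. The differences of Psmb10 and Psmd10 kept their call in every setting tried at the 0.05 threshold. That of Psmb8 lost it on its second probe (0.27), that of Psmd2 lost it in 9 of 17 settings, that of Psme2 in 7 of 16 and that of Psma7 in 7 of 17. Without 2 day replicate 2 the difference was 0.13 for Psme2, 0.28 for Psme1 and 0.26 for Psma7, past no threshold.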

How the results depend on the processing

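Normexp background correction with an offset of 16 moved the most values. It left 0 calls at 2 hours, 3 at 2 days and 4 between the times, and gave medians of the 5 immune members of 0.84 at 2 days and 0.69 between the times and a Psmb9 over Psmb6 shift of 0.62 at 2 days. Cyclic loess gave 7 calls between the times, with a median of the other members of 0.15. Averaging the probes of a gene, the other members had medians of 0.10 at 2 days and 0.12 between the times, the Psmb8 over Psmb5 shift was 0.70 and 0.31, and the Psmb10 over Psmb7 shift 1.37 and 0.59. At an adjusted p under 0.01 there were 5 calls between the times. The sign turned on another probe for Uchl5 at 2 days (0.049) and for Stat3 at 2 days (0.30) and between the times (0.01). The cause of these changes was not tested.

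Leaving out 1 array gave 1 to 2 calls at 2 hours, the low value without either 2 hour array, 4 to 9 at 2 days, lowest without 2 day replicate 2, and 5 to 11 between the times. The median of the other members ran from -0.073 to 0.012 at 2 hours, turning positive without untreated replicate 2, from 0.067 to 0.16 at 2 days and from 0.15 to 0.21 between the times. The median of the 5 immune members ran from 0.55 to 0.85 at 2 days and from 0.43 to 0.62 between the times. The Psmb8 over Psmb5 shift ran from 0.88 to 1.28 at 2 days and from 0.47 to 0.87 between the times. The Psmb9 over Psmb6 shift ran from 0.26 to 0.58 at 2 days, from -0.02 to 0.30 at 2 hours, negative without untreated replicate 2, and from 0.15 to 0.41 between the times. The remaining alternatives, which were median centring, the offset before log2, both filters, trended and robust variances, fits of 2 groups and a looser threshold, left these summary values within their replicate spread or within 1.5 times the count.

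A fit with the replicate number as a block gave 2, 7 and 11 calls at 2 hours, at 2 days and between the times, as without the block. Deviations of same-numbered arrays correlated at -0.148, -0.0753 and 0.0364. The labels do not say whether arrays were paired, and with so few arrays these correlations cannot decide it. A crossed pairing, chosen after seeing the data, gave 3 calls at 2 hours. A block for slide or scan was not run because the files used here give none.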
